A study of Homo sapiens with 8 samples.

Results

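The genes examined here encode the subunits of the 3 nuclear RNA polymerases. They were chosen by symbol: every row whose symbol names a POLR1, POLR2 or POLR3 subunit, together with CD3EAP, ZNRD1, TWISTNB and CRCP, which encode subunits under older names. Of the 57 rows that matched, 36 averaged 1 RPKM or more across the 8 libraries and form the set described here, out of 14732 genes that passed the same minimum. RPKM counts reads relative to gene length and to the size of the library, so levels may be compared between genes. The 21 rows under the minimum were 14 copies on patches or alternative haplotypes and 7 rows on the chromosomes, the highest of which, POLR2CP, had a mean of 0.261 RPKM. The lowest member, a POLR2J2 row (ENSG00000228049), had a mean of 6.12 RPKM, so no gene lay near the minimum.

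RNA polymerase I transcribes the large ribosomal RNA precursor, RNA polymerase II transcribes messenger RNAs and many small nuclear RNAs, and RNA polymerase III transcribes transfer RNAs, 5S ribosomal RNA and other short RNAs. Each enzyme has its own catalytic core, formed by its largest and second largest subunits, and its own peripheral subunits, while several small subunits are shared. The supply of ribosomes and transfer RNAs that Pol I and Pol III provide is a known requirement of growing cells, and plasma cell tumours such as myeloma carry a heavy load of protein synthesis.

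The members fall into 6 classes. Pol I has 6 members of its own (POLR1A, POLR1B, POLR1E, CD3EAP, TWISTNB and ZNRD1), and POLR1C and POLR1D are shared by Pol I and Pol III. Pol III has 11 members of its own, among them POLR3A, POLR3B, POLR3C, POLR3D, POLR3E, POLR3F, POLR3G, POLR3GL, POLR3K and CRCP. Pol II has 7 members of its own (POLR2A, POLR2B, POLR2C, POLR2D, POLR2G, POLR2I and POLR2J). POLR2E, POLR2F, POLR2H, POLR2K and POLR2L are used by all 3 enzymes. The last class holds 5 rows: POLR2J2, present under 2 gene identifiers, POLR2J3 and POLR2J4, which are copies of POLR2J, and POLR2M, which encodes a protein associated with Pol II.

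The data are RNA-seq of LP-1 cells, a human multiple myeloma cell line, which was treated for 6 h in every library. SGC-CBP30, an inhibitor of the bromodomains of the coactivators CBP and EP300, was used at 2.5 μM, and CPI203, an inhibitor of the bromodomains of the BET proteins, was used at 250 nM. Each compound has 2 libraries and 2 DMSO libraries of its own experiment, described as biological replicates, which gives 8 libraries in 4 groups. The comparison of the compounds asks which transcripts respond to each kind of bromodomain inhibitor soon after it is added.

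From low RPKM values that fall on steps of whole reads, the depth was estimated at 26100000 to 50100000 reads per library. The plasma cell markers SDC1, TNFRSF17, XBP1, PRDM1 and IRF4 were present in all 8 libraries, with lowest values between 19.5 RPKM for SDC1 and 176 RPKM for XBP1. The 3 B cell, 3 T cell and 3 monocyte markers stayed under 0.5 RPKM each in every library, with PAX5 listed at 0 throughout. Of the erythroid markers, HBA1 was at most 0.156 RPKM and HBB lay between 0.773 and 3.55 RPKM. In bulk RNA of this kind fewer cells and less RNA per cell cannot be told apart, and RPKM is relative to the other RNA of the library.

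Promoter windows from RefSeq (GRCh38.p14) were available for 24 of the 35 member symbols, each window running from 250 bases before to 50 bases after an annotated start. The motif CACGTG, the sequence bound by MYC and other basic helix-loop-helix factors, was found in 4 of the 24 (16.7%), compared with 8.77% of the 27305 genes in the RefSeq table and 13.1% of the 8419 genes tested that had a window. CACGTG reads the same on both strands. These 4 windows and that of POLR2A, the member that rose with CPI203 by the largest fold, are shown because CPI203 moved these genes in opposite directions, as described further on. Capitals mark CACGTG, and every sequence is written 5′ to 3′ on the strand of its gene.
CD3EAP, chr19:45406394-45406693, plus strand: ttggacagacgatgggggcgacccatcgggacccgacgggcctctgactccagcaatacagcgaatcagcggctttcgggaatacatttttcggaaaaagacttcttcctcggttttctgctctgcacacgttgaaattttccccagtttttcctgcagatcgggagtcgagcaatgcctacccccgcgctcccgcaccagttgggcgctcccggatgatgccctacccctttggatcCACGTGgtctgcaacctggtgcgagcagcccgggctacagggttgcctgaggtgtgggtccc
POLR3A, chr10:78029466-78029765, minus strand: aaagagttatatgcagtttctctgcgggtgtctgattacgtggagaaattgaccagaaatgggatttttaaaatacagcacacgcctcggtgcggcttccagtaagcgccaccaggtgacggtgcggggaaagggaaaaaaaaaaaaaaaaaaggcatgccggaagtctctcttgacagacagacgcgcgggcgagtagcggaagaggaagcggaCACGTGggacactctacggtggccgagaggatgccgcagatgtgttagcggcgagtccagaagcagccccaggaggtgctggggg
POLR3C, chr1:145823950-145824249, plus strand: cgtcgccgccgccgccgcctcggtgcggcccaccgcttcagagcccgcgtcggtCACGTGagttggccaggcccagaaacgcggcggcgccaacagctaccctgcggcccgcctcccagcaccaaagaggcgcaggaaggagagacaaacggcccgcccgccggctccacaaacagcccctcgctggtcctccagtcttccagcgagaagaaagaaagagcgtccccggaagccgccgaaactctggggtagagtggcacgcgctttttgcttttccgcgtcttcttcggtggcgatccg
POLR3E, chr16:22297159-22297458, plus strand: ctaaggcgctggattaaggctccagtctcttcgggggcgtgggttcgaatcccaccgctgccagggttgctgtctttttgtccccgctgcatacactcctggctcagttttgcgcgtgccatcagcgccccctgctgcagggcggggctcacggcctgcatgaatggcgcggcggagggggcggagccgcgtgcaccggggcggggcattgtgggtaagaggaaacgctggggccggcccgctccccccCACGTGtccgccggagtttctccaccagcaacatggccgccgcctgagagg
POLR2A, chr17:7484116-7484415, plus strand: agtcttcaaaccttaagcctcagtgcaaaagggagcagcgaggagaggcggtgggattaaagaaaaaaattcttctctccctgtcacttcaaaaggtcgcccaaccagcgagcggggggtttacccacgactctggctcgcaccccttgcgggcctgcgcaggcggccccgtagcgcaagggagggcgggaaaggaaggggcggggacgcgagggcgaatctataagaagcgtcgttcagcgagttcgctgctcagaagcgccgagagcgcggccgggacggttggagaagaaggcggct

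The CACGTG of CD3EAP begins 12 bases before the start, that of POLR3A 35 bases, that of POLR3C 196 bases and that of POLR3E 1 base. POLR3C has 2 windows, at different annotated starts, and the one not shown holds no CACGTG. A gene was counted when any of its windows held the motif. All 4 genes with CACGTG were lower with CPI203, as were 11 of the 19 other member symbols that had a window and a single row. Among those 11 were POLR1B and POLR1A, with log2 fold changes of -1.99 and -1.55 and no CACGTG in their windows. With CACGTG, the log2 fold changes were -2.19 for CD3EAP, -0.84 for POLR3E, -0.50 for POLR3A and -0.47 for POLR3C. A link between the motif and the response was not tested. Among all genes tested that had a window, 507 of 1106 with CACGTG were lower with CPI203 (45.8%), compared with 2487 of 7313 without it (34.0%). The core of the NRF1 motif, written as GCGC, any 2 bases and GCGC, was in 8 of the 24 (33.3%, compared with 9.98% of the table and 20.2% of the genes tested), among them POLR1A, POLR2B, POLR3B and POLR3K. POLR3B has 2 windows, and only the second held this core. The cyclic AMP response element TGACGTCA was in ZNRD1 alone (4.17%, compared with 2.25% and 4.0%). The NRF1 core and TGACGTCA also read the same on both strands, and none of the 3 motifs was found in the POLR2A window. Matches of letters are given as a description of these windows, and binding was not measured in these data.

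CPI203 lowered most of the subunit genes of Pol I and Pol III and left most of those of Pol II near their DMSO level. Of the 36 members, 22 were lower, 6 were higher and 8 passed in neither direction at an adjusted p under 0.05 (limma, Benjamini-Hochberg adjustment over all genes tested). Over all genes tested, 33.1% were lower and 31.1% higher by the same rule. At a change of at least 1.5-fold as well, 11 members were lower and 1, POLR2A, was higher, where 14.4% and 13.4% of all genes were. The median log2 fold change was -1.27 in Pol I, -0.66 in the pair shared by Pol I and Pol III, -0.50 in Pol III, -0.23 in the subunits of all 3 enzymes, -0.03 in Pol II and 0.18 in the Pol II copies and POLR2M. The median over all genes tested was -0.02. Both CPI203 libraries lay under both DMSO libraries for 25 members and above both for 7, where 41.7% and 39.2% of all genes tested did.

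**Figure D1:**
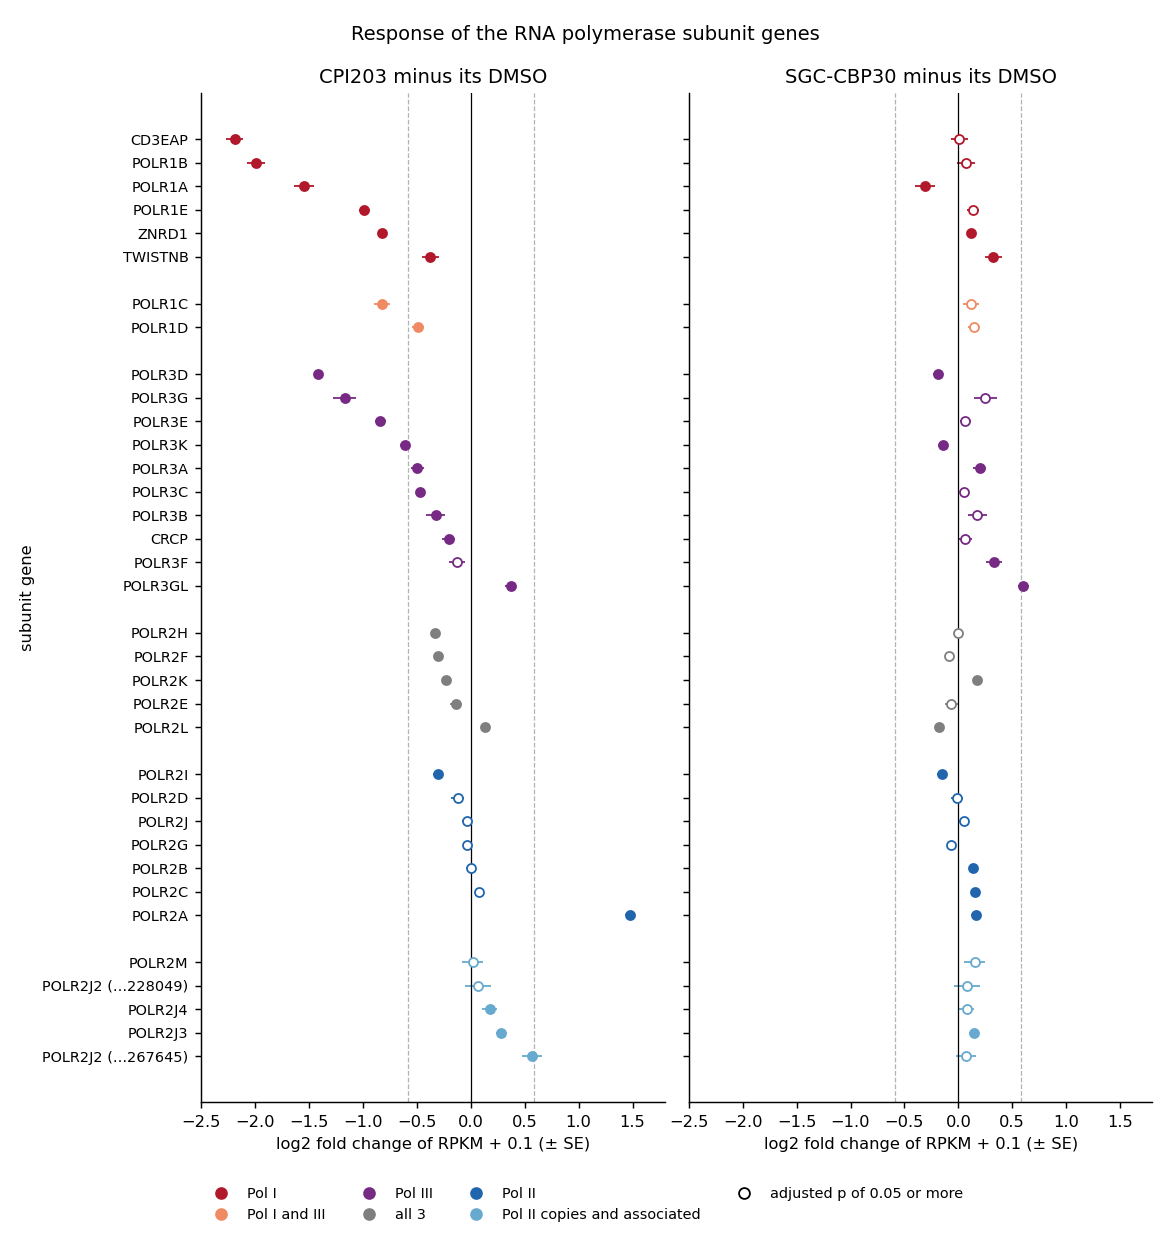
Log2 fold change of RPKM + 0.1 for 35 of the 36 members, CPI203 on the left and SGC-CBP30 on the right, each against its own DMSO pair; bars are the limma standard error, open points have an adjusted p of 0.05 or more, and dashed lines mark 1.5-fold. The class named all 3 holds the subunits used by all 3 enzymes. With CPI203 the 6 Pol I genes lie between -2.19 and -0.38 and POLR2A lies alone at 1.48, while with SGC-CBP30 POLR3GL alone passes a dashed line.

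The largest falls were in the Pol I genes, all 6 of which were lower. CD3EAP encodes a Pol I subunit that pairs with the product of POLR1E (chromosome 19, 45909467 to 45914024, hg19). It was at 19.7 and 17.9 RPKM in the DMSO libraries and at 3.84 and 4.26 RPKM with CPI203. All 4 values are well apart by treatment, and the fall was 4.65-fold in RPKM, with a log2 fold change of -2.19 ± 0.08 (SE, adjusted p = 2.7e-08, limma with Benjamini-Hochberg adjustment).

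POLR1B encodes the second largest Pol I subunit (chromosome 2, 113299492 to 113334635, hg19). It was at 22.1 and 19.9 RPKM with DMSO and at 4.80 and 5.61 RPKM with CPI203, and its log2 fold change was -1.99 ± 0.08 (SE, adjusted p = 5.32e-08, limma with Benjamini-Hochberg adjustment). POLR1A, which encodes the largest subunit (chromosome 2, 86247339 to 86333278, hg19), went from 13.1 and 15.2 RPKM to 4.48 and 5.06 RPKM, a log2 fold change of -1.55 ± 0.09 (SE, adjusted p = 4.49e-07, limma). The RPKM of POLR1A was thus 2.96-fold lower and that of POLR1B 4.03-fold lower. Both genes lay lower in each CPI203 library than in any of the 4 DMSO libraries.

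The other Pol I genes fell less. POLR1E was at 28.3 and 28.7 RPKM with DMSO and at 13.8 and 14.8 RPKM with CPI203, a log2 fold change of -0.99 ± 0.05 (SE). ZNRD1, which encodes a small subunit with a role in cleavage of the transcript, was at 43.1 and 45.3 RPKM with DMSO and at 25.1 and 24.7 RPKM with CPI203, a log2 fold change of -0.82 ± 0.04 (SE). TWISTNB, which encodes a stalk subunit, was the sixth and fell by 0.38 ± 0.08 (SE) on the log2 scale, short of 1.5-fold. Treated and DMSO libraries did not overlap for any of the 6. ZNRD1 was the most abundant Pol I transcript over the 8 libraries (mean 40.1 RPKM) and POLR1A the least (mean 12.4 RPKM).

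POLR1C and POLR1D, whose products form the dimer that starts assembly of both Pol I and Pol III, were both lower. POLR1C was at 44.8 and 49.2 RPKM with DMSO and at 28.5 and 24.5 RPKM with CPI203, a log2 fold change of -0.83 ± 0.07 (SE, adjusted p = 6.45e-06, limma with Benjamini-Hochberg adjustment). POLR1D, at 68.2 and 69.7 RPKM, went to 51.6 and 46.8 RPKM and fell by 0.49 ± 0.05 (SE) on the log2 scale. The gene of POLR1C overlaps XPO5 on the opposite strand, which went from 41.4 and 43.3 to 25.2 and 27.7 RPKM. The CD3EAP gene overlaps ERCC1, which was at 20.4 and 22.6 RPKM with DMSO and at 17.9 and 22.7 RPKM with CPI203. The sources used here do not say whether reads were counted by strand, so reads of such pairs cannot be told apart.

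**Figure D2:**
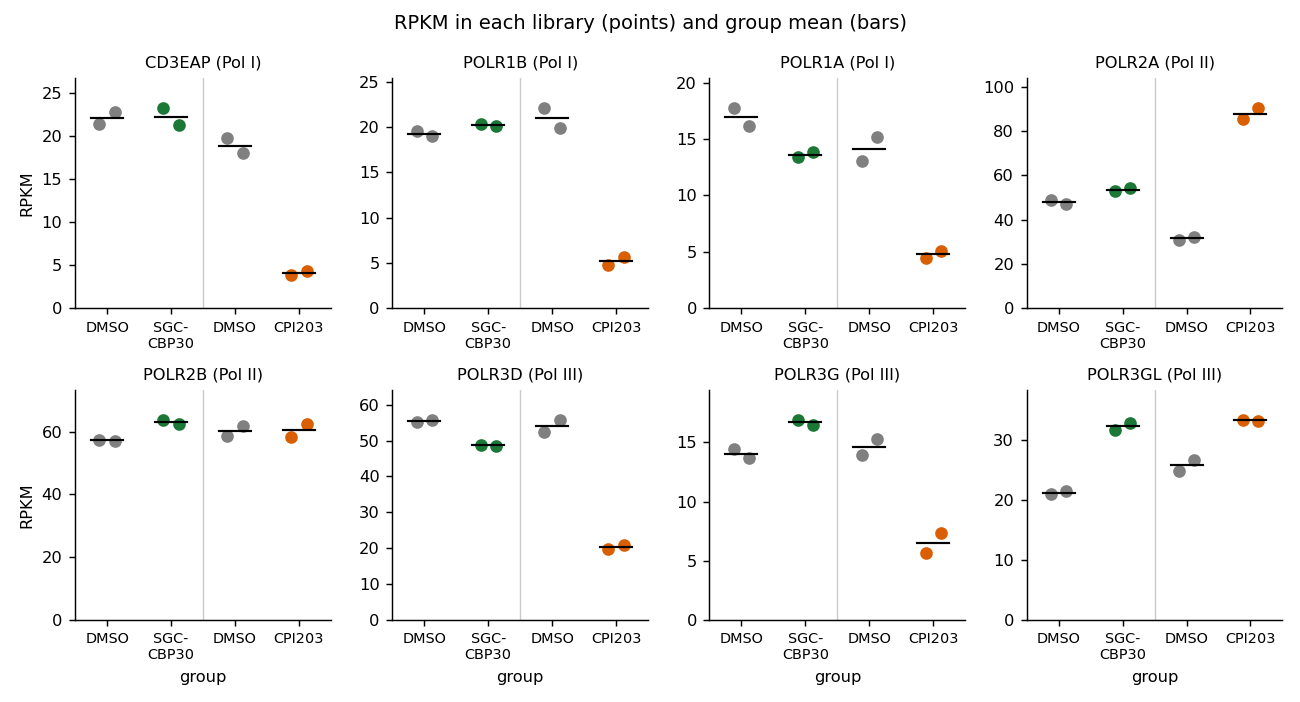
RPKM of 8 subunit genes in each of the 8 libraries (points), with the group mean as a bar; the 2 groups left of the vertical line are the SGC-CBP30 experiment and the 2 on the right are the CPI203 experiment, and each axis starts at 0. CPI203 libraries lie under all 6 other libraries for CD3EAP, POLR1B, POLR1A, POLR3D and POLR3G, above all 6 for POLR2A, and among them for POLR2B.

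Of the 11 Pol III genes, 9 fell with CPI203, POLR3GL rose and POLR3F did not pass the test. The falls were uneven. POLR3D and POLR3E encode a peripheral pair of subunits that acts in initiation and termination. POLR3D was at 52.4 and 55.7 RPKM with DMSO and at 19.8 and 20.7 RPKM with CPI203, a log2 fold change of -1.41 ± 0.05 (SE, adjusted p = 1.52e-08, limma with Benjamini-Hochberg adjustment). POLR3E was at 39.5 and 37.1 RPKM with DMSO and at 20.6 and 22.1 RPKM with CPI203, a log2 fold change of -0.84 ± 0.05 (SE). Both members of the pair were thus clear of their DMSO libraries.

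CRCP, which encodes a small stalk subunit, went from 24.7 and 27.9 RPKM to 22.6 and 23.0 RPKM, a log2 fold change of -0.20 ± 0.06 (SE, adjusted p = 0.0141, limma). The CRCP call did not hold without DMSO replicate 2 of the CPI203 experiment or without CPI203 replicate 1, nor without a filter (highest adjusted p over all alternatives 0.108, limma). POLR3K, which encodes the subunit that cleaves the transcript and acts in termination, was at 46.0 and 47.4 RPKM with DMSO and at 31.4 and 29.7 RPKM with CPI203, a log2 fold change of -0.61 ± 0.05 (SE). The groups of POLR3K were far apart, and those of CRCP lay close together without overlap.

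Both genes of the catalytic core of Pol III fell. POLR3A, which encodes the largest subunit, was at 12.9 and 12.9 RPKM with DMSO and at 8.87 and 9.38 RPKM with CPI203, a log2 fold change of -0.50 ± 0.06 (SE, adjusted p = 5.21e-05, limma). POLR3B, which encodes the second largest, was at 15.9 and 19.1 RPKM with DMSO and at 13.5 and 14.2 RPKM with CPI203, a log2 fold change of -0.33 ± 0.09 (SE, adjusted p = 0.00884, limma). The POLR3B call was lost without DMSO replicate 2 of that experiment, without CPI203 replicate 1, without a filter, and with all 4 DMSO libraries as controls, with a highest adjusted p over all alternatives of 0.0695 (limma). POLR3A was the least abundant Pol III transcript (mean 12.2 RPKM). POLR3C, the most abundant (mean 59.6 RPKM), went from 58.9 and 61.3 RPKM to 44.1 and 42.5 RPKM and fell by 0.47 ± 0.04 (SE) on the log2 scale.

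POLR3G and POLR3GL encode alternative forms of the same Pol III subunit, which belongs with the products of POLR3C and POLR3F to the group of subunits that acts in initiation. POLR3G (chromosome 5, 89767565 to 89810370, hg19) was at 13.9 and 15.3 RPKM with DMSO and at 5.65 and 7.31 RPKM with CPI203, a log2 fold change of -1.17 ± 0.11 (SE, adjusted p = 7.95e-06, limma with Benjamini-Hochberg adjustment). POLR3GL (chromosome 1, 145456236 to 145470388, hg19) was at 24.96 and 26.7 RPKM with DMSO and at 33.4 and 33.3 RPKM with CPI203, a log2 fold change of 0.37 ± 0.05 (SE, adjusted p = 0.00011, limma). The forms thus moved in opposite directions with CPI203, each without overlap between groups. POLR3F, at 15.9 and 16.2 RPKM with DMSO and 14.7 and 14.6 RPKM with CPI203, had a log2 fold change of -0.13 ± 0.08 (SE, adjusted p = 0.159, limma).

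The ratio of POLR3G to POLR3GL does not depend on how a library is scaled. In the CPI203 experiment it was 0.558 and 0.573 with DMSO and 0.169 and 0.220 with CPI203, a difference of -1.54 in the log2 ratio (exact permutation test, two-sided, p = 0.33, the smallest p that 2 against 2 libraries allow). With SGC-CBP30 the ratio went from 0.687 and 0.634 to 0.531 and 0.502, a difference of -0.35 in the log2 ratio (exact permutation p = 0.33). POLR3GL was thus the more abundant form in all 8 libraries, and the ratio was lowest with CPI203. The gene of POLR3G overlaps MBLAC2 on the opposite strand, which was at 14.3 and 14.7 RPKM with DMSO and at 9.13 and 8.82 RPKM with CPI203, so the size of the POLR3G fall carries that uncertainty.

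Of the 7 genes particular to Pol II, POLR2A was higher with CPI203, POLR2I was lower and 5 passed in neither direction. POLR2A encodes the largest subunit, which carries the C-terminal repeat domain (chromosome 17, 7387685 to 7417933, hg19). It was at 31.0 and 32.1 RPKM with DMSO and at 85.6 and 90.3 RPKM with CPI203, with a log2 fold change of 1.48 ± 0.04 (SE, adjusted p = 1.13e-08, limma with Benjamini-Hochberg adjustment). This was 2.79-fold in RPKM, and both CPI203 libraries lay above all 6 other libraries. The other DMSO pair, that of the SGC-CBP30 experiment, held more POLR2A, 48.7 and 46.9 RPKM, and against all 4 DMSO libraries the log2 fold change was 1.18 (adjusted p = 0.00112, limma).

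POLR2B, which encodes the second largest subunit and so the other part of the catalytic core, was near its DMSO level. It was at 58.6 and 61.8 RPKM with DMSO and at 58.3 and 62.5 RPKM with CPI203, and its log2 fold change was 0.00 ± 0.05 (SE, adjusted p = 0.937, limma). The ratio of POLR2A to POLR2B, which was chosen after the values were seen, was 0.528 and 0.520 with DMSO and 1.47 and 1.45 with CPI203 (exact permutation test, two-sided, p = 0.33). With SGC-CBP30 it was 0.827 and 0.871, against 0.847 and 0.822 with DMSO (exact permutation p = 0.667). POLR2A was thus the less abundant of the pair in 6 libraries and the more abundant in the 2 CPI203 libraries.

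POLR2C, POLR2D, POLR2G and POLR2J had log2 fold changes between -0.12 and 0.08, with standard errors of at most 0.06. POLR2G, the most abundant Pol II transcript (mean 106 RPKM), was at 104 and 105 RPKM with DMSO and at 104 and 100.1 RPKM with CPI203. POLR2D, the least abundant (mean 25.5 RPKM), was at 27.2 and 24.96 RPKM and then at 23.7 and 24.1 RPKM. POLR2G and POLR2D encode the stalk of Pol II, and neither passed the test. POLR2I, which encodes a small subunit with a role in transcript cleavage and fidelity, went from 42.2 and 43.1 RPKM to 34.1 and 34.8 RPKM and fell by 0.31 ± 0.04 (SE) on the log2 scale.

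Of the 5 subunits that all 3 polymerases use, POLR2E, POLR2F, POLR2H and POLR2K were lower with CPI203 and POLR2L was higher, none by 1.5-fold. POLR2H went from 107 and 102 RPKM to 82.7 and 83.5 RPKM and fell by 0.33 ± 0.04 (SE) on the log2 scale. Its gene overlaps EIF2B5 on the same strand, which went from 61.6 and 61.6 RPKM to 48.0 and 49.0 RPKM, and reads of the shared stretch could be counted for either gene. POLR2F, the least abundant of the 5 (mean 76.8 RPKM), went from 76.7 and 75.0 RPKM to 59.4 and 63.7 RPKM and fell by 0.30 ± 0.04 (SE) on the log2 scale. POLR2L, the most abundant of all members (mean 153 RPKM), was at 148 and 142 RPKM with DMSO and at 157 and 161 RPKM with CPI203, a log2 fold change of 0.13 ± 0.03 (SE, adjusted p = 0.00666, limma). The call for POLR2E, with a log2 fold change of -0.14 and an adjusted p of 0.0487 (limma), held in 8 of 18 alternatives. That for POLR2L was lost against all 4 DMSO libraries and without DMSO replicate 2 of the CPI203 experiment.

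Among the copies of POLR2J, the POLR2J2 row ENSG00000267645, POLR2J3 and POLR2J4 were higher with CPI203. The first went from 16.3 and 18.5 RPKM to 23.4 and 28.5 RPKM, a log2 fold change of 0.57 ± 0.09 (SE, adjusted p = 0.000456, limma). POLR2J3 went from 29.2 and 29.5 RPKM to 34.6 and 36.7 RPKM. In the DMSO pair of the SGC-CBP30 experiment the same POLR2J2 row was at 25.1 and 24.3 RPKM and POLR2J3 at 36.2 and 36.5 RPKM, and against all 4 DMSO libraries neither passed the test (adjusted p = 0.169 and 0.348, limma). POLR2J2 and POLR2J3 are close copies in sequence, which was not measured here. The POLR2J2 rows overlap each other and UPK3BL, and POLR2J3 overlaps RASA4B. Reads of the shared stretches could be counted for either gene. The POLR2J4 call (adjusted p = 0.047, limma) held in 5 of 18 alternatives, and was lost with median and quantile scaling and without any 1 of 5 libraries, among them both CPI203 libraries. The other POLR2J2 row, at 5.11 and 4.41 RPKM with DMSO and 4.56 and 5.42 RPKM with CPI203, and POLR2M passed in neither direction.

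Summed over each class, the Pol I genes had 143 and 146 RPKM with DMSO and 66.1 and 68.1 RPKM with CPI203, a change of -53.6%. The Pol III genes had 333 and 347 RPKM with DMSO and 227 and 230 RPKM with CPI203, a change of -32.8%. The Pol II genes had 418 and 420 RPKM with DMSO and 460 and 468 RPKM with CPI203, a change of 10.7%. Without POLR2A, left out after its values were seen, the other 6 Pol II genes summed to 387 and 388 RPKM with DMSO and to 375 and 378 RPKM with CPI203, a change of -2.93%. In each of these sums the pairs lay close together and did not overlap. The subunits of all 3 enzymes changed by -8.99% in sum.

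**Figure D3:**
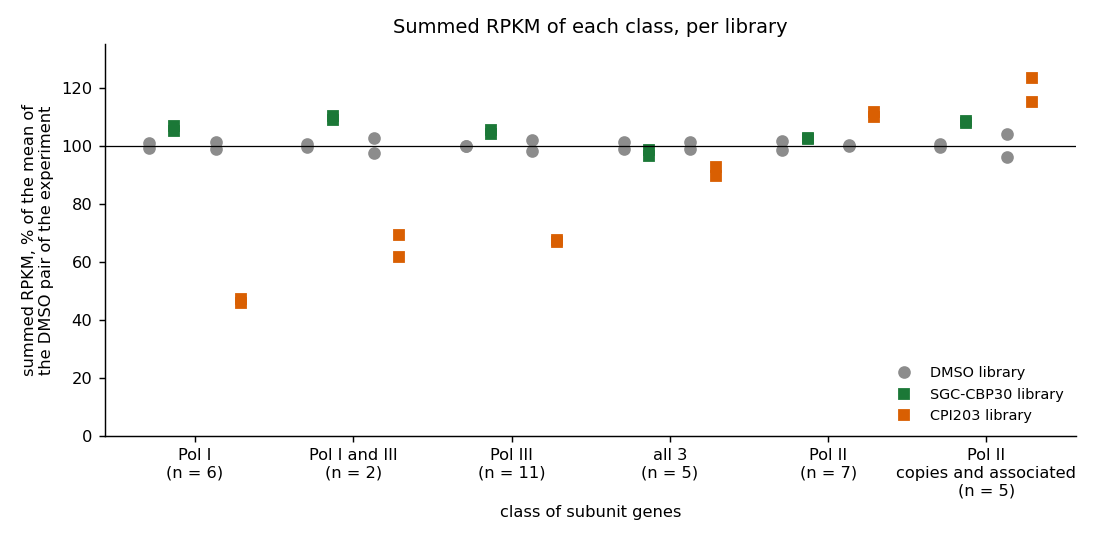
Summed RPKM of each class of subunit genes in each library, as a percentage of the mean of the DMSO pair of the same experiment; circles are DMSO libraries, squares are libraries with compound, and n is the number of genes summed. With CPI203 the change in the sum is -53.6% for Pol I, -32.8% for Pol III and 10.7% for Pol II, or -2.93% for Pol II without POLR2A.

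SGC-CBP30 changed the same genes little. It raised POLR3GL, the only member past 1.5-fold, and moved 14 others by less. Of the 36 members, 10 were higher, 5 were lower and 21 passed in neither direction, where 25.6% of all genes tested were higher and 14.8% lower (limma, adjusted p under 0.05). At 1.5-fold as well, 1 member was higher and 0 were lower, compared with 3.47% and 3.79% of all genes. Both SGC-CBP30 libraries lay above both DMSO libraries for 19 members and under both for 7, where 45.9% and 27.2% of all genes tested did. The median log2 fold change was 0.08 over the members and 0.07 over all genes tested. When every library was scaled to the same median, the counts became 4 higher and 7 lower.

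POLR3GL was at 21.1 and 21.5 RPKM with DMSO and at 31.8 and 32.9 RPKM with SGC-CBP30, a log2 fold change of 0.60 ± 0.05 (SE, adjusted p = 2.69e-05, limma with Benjamini-Hochberg adjustment). Its alternative form POLR3G was at 14.5 and 13.6 RPKM with DMSO and at 16.9 and 16.5 RPKM with SGC-CBP30, a log2 fold change of 0.25 ± 0.11 (SE, adjusted p = 0.0936, limma). POLR3GL was therefore higher with both compounds. The POLR3GL call, by adjusted p alone, held in all 18 alternatives with SGC-CBP30 and in all 18 with CPI203. Its log2 fold change with SGC-CBP30 lay between 0.46 and 0.62 in these alternatives, and 1.5-fold was not reached in all of them.

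The other increases with SGC-CBP30 were in TWISTNB, ZNRD1, POLR2A, POLR2B, POLR2C, POLR2J3, POLR2K, POLR3A and POLR3F, with log2 fold changes between 0.12 and 0.33. Of 18 alternatives, the call held in 5 for ZNRD1, 9 for POLR2J3 and 10 for POLR3A, and each of these 3 was lost without any of the 4 libraries of that experiment. Those of TWISTNB and POLR3F held in 14, POLR2C in 15 and POLR2K in 17. TWISTNB and POLR3F lost the call without a filter and against all 4 DMSO libraries. POLR2C lost it with median scaling, and POLR2K against all 4 DMSO libraries. DMSO replicate 2 decided TWISTNB and POLR3F, SGC-CBP30 replicate 2 also TWISTNB, SGC-CBP30 replicate 1 also POLR3F and POLR2C, and DMSO replicate 1 also POLR2C. POLR2A was at 48.7 and 46.9 RPKM with DMSO and at 52.8 and 54.4 RPKM with SGC-CBP30, a log2 fold change of 0.16 ± 0.04 (SE, adjusted p = 0.0164, limma). POLR2B was at 57.5 and 57.0 RPKM with DMSO and at 63.8 and 62.5 RPKM with SGC-CBP30, a log2 fold change of 0.14 ± 0.05 (SE, adjusted p = 0.0335, limma). Both largest subunits of Pol II thus stood slightly higher together. Neither call held with median scaling, without a filter, against all 4 DMSO libraries or without the intensity trend. The POLR2A call was also lost without DMSO replicate 2 or SGC-CBP30 replicate 2, and the POLR2B call without any of the 4 libraries of that experiment.

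The decreases with SGC-CBP30 were in POLR1A, POLR3D, POLR2L, POLR2I and POLR3K. POLR1A was at 17.7 and 16.2 RPKM with DMSO and at 13.4 and 13.8 RPKM with SGC-CBP30, a log2 fold change of -0.31 ± 0.09 (SE, adjusted p = 0.022, limma). POLR3D was at 55.2 and 55.7 RPKM with DMSO and at 48.9 and 48.5 RPKM with SGC-CBP30, a log2 fold change of -0.19 ± 0.05 (SE, adjusted p = 0.0096, limma). Both were also lower with CPI203, by larger folds. The POLR1A call was lost without DMSO replicate 1, without either SGC-CBP30 library, without a filter, and against all 4 DMSO libraries (highest adjusted p 0.327, limma). The POLR3D call was lost without DMSO replicate 2, without SGC-CBP30 replicate 2, and against all 4 DMSO libraries (highest adjusted p 0.063, limma). The POLR3K call held in 9 of 18 alternatives and was lost with the replicate block and without any of the 4 libraries. The POLR2I call was lost without DMSO replicate 2 and without either SGC-CBP30 library, and that of POLR2L only against all 4 DMSO libraries.

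CD3EAP and POLR1B, the members lowered by the largest folds with CPI203, stayed near their DMSO level with SGC-CBP30. CD3EAP was at 21.3 and 22.7 RPKM with DMSO and at 23.2 and 21.2 RPKM with SGC-CBP30, a log2 fold change of 0.01 ± 0.08 (SE). POLR1B was at 19.5 and 19.1 RPKM with DMSO and at 20.3 and 20.2 RPKM with SGC-CBP30, a log2 fold change of 0.07 ± 0.08 (SE). The CD3EAP groups overlapped. In sum, the Pol I genes changed by 5.86% with SGC-CBP30, the Pol III genes by 4.71% and the Pol II genes by 2.42%.

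The difference between the compounds, each at its own dose and against its own DMSO, was tested directly as the log2 fold change with SGC-CBP30 minus that with CPI203. It was positive for 22 members, negative for 3 and passed in neither direction for 11, where 29.3% of all genes tested were positive and 21.0% negative (limma, adjusted p under 0.05). All 6 Pol I genes, POLR1C and POLR1D, and all 11 Pol III genes had positive differences that passed. At 1.5-fold as well, 13 were positive and 1 was negative, where 14.8% and 9.68% of all genes were. The 3 negative ones were POLR2A, the POLR2J2 row ENSG00000267645 and POLR2L. That POLR2J2 row had a mean of 26.0 RPKM with either compound, and 24.7 and 17.4 RPKM in the DMSO pairs of SGC-CBP30 and CPI203. Its difference thus lies in the DMSO pairs. Each compound was used in its own experiment, so differences between compounds and between experiments cannot be told apart. The median difference was 1.18 in Pol I, 0.53 in Pol III, 0.09 in Pol II and 0.06 over all genes tested.

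The largest differences were in CD3EAP, POLR1B and POLR3G. That of CD3EAP was 2.20 ± 0.11 (SE, adjusted p = 7.9e-07, limma with Benjamini-Hochberg adjustment). That of POLR1B was 2.06 ± 0.11 (SE, adjusted p = 1.24e-06, limma). That of POLR3G was 1.42 ± 0.15 (SE, adjusted p = 5.15e-05, limma). POLR2A had the opposite sign, at -1.31 ± 0.06 (SE, adjusted p = 6.09e-07, limma), and these 4 differences held in all 16 alternatives. A fit against all 4 DMSO libraries was not among the 16, because this difference takes each DMSO pair apart. The POLR2A means were 53.6 RPKM with SGC-CBP30 and 88.0 RPKM with CPI203, and 47.8 and 31.5 RPKM in their DMSO pairs. Part of the POLR2A difference thus lies in the DMSO pairs.

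POLR3GL, higher with both compounds, still differed, by 0.23 ± 0.07 (SE, adjusted p = 0.0199, limma), but this held in 10 of 16 alternatives. For CRCP, at 0.27 ± 0.09 (SE, adjusted p = 0.0255, limma), it held in 7 of 16. POLR2B, POLR2C, POLR2D, POLR2G, POLR2I and POLR2J had differences between -0.04 and 0.15 that did not pass.

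**Figure D4:**
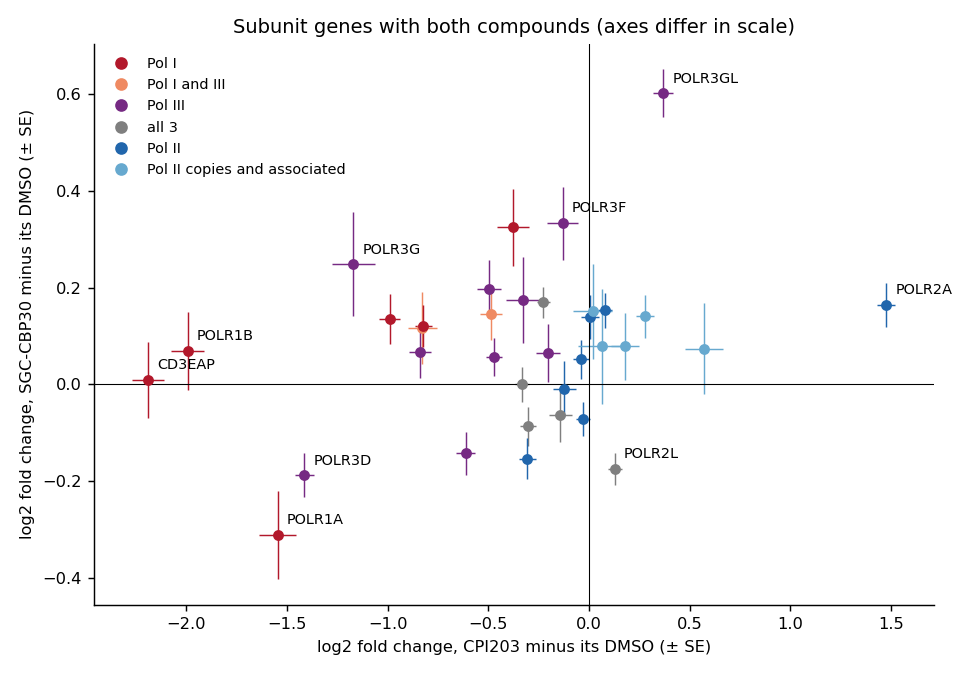
Log2 fold change with CPI203 (horizontal axis) and with SGC-CBP30 (vertical axis) for 35 of the 36 members, each against its own DMSO pair, with limma standard errors as bars; the axes differ in scale. CD3EAP and POLR1B lie far to the left at a vertical position of 0.01 and 0.07, POLR2A lies far to the right, and POLR3GL is the highest point at 0.60.

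Many members also differed between the DMSO pairs. Of the 36, 18 were lower and 3 higher in the pair of the CPI203 experiment, where 21.5% and 20.3% of all genes tested were (limma, adjusted p under 0.05). POLR2A had the largest of these differences, -0.60 ± 0.04 (SE), with a mean of 47.8 RPKM in the SGC-CBP30 experiment and 31.5 RPKM in the CPI203 experiment. CD3EAP differed by -0.23, POLR1A by -0.26 and POLR3GL by 0.28. Library series and experiment cannot be told apart in these labels. At 1.5-fold as well, POLR2A was the only member lower and 0 were higher, where 3.91% of all genes tested were lower and 3.93% higher.

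Of 69 other genes of the transcription machinery, listed by role, 68 could be tested. With CPI203, 21 were higher, 22 lower and 25 passed in neither direction, and their median log2 fold change was -0.01. The shares over all genes tested were 31.1% higher and 33.1% lower, so the counts of this list were near the background. The 7 Pol I factors tested included 3 that fell and 0 that rose, with a median of -0.31. The 16 Pol III factors included 6 lower and 5 higher, and the 31 general factors of Pol II 7 lower and 12 higher. The subunit genes of Pol I were thus all lower, which was not so for the genes of its factors.

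GTF3C6, which encodes a subunit of the Pol III factor TFIIIC, went from 26.4 and 27.2 RPKM to 14.4 and 13.0 RPKM with CPI203, a log2 fold change of -0.96 ± 0.06 (SE). SNAPC5, which encodes a subunit of the complex that activates small nuclear RNA genes, went from 77.3 and 81.1 RPKM to 44.0 and 43.5 RPKM. These were the 2 largest falls on the list. GTF2H2, a general factor of Pol II, fell nearly as far as SNAPC5, with log2 fold changes of -0.83 and -0.85. It went from 31.2 and 32.7 RPKM to 18.2 and 17.6 RPKM. The largest increases were in genes of Pol II initiation. TAF12, which encodes a subunit of TFIID and SAGA, went from 22.3 and 23.3 RPKM to 45.0 and 39.9 RPKM, a log2 fold change of 0.89 ± 0.07 (SE). GTF2B, which encodes TFIIB, went from 17.6 and 17.9 RPKM to 31.6 and 29.9 RPKM.

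With SGC-CBP30, 22 of the 68 were higher and 1 was lower, none by 1.5-fold. Over all genes tested, 25.6% were higher and 14.8% lower. The gene that was lower, TAF10, is named because it stands alone in this count and was chosen after its value was seen. With every library scaled to the same median these counts were 13 and 7. The Pol I factors included 3 higher and 0 lower of 7, and the Pol III factors 3 higher and 0 lower of 16.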

How the data were processed

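The service provider of the study sequenced LP-1 RNA, and the deposited table gives an RPKM value for each gene and library, with symbols and hg19 positions (converted here to count from 1). The submitters' processing notes name TopHat 1.4.1 and Cufflinks, and whether reads were counted by strand is not given in the sources used here. The table's 24 columns from libraries outside the series were left out. Members and lists were chosen with earlier results of these data known. Which DMSO pair belongs to which compound follows from the library names in the labels.

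A missing value removed 27 genes. The 14732 genes that averaged 1 RPKM or more were tested on log2(RPKM + 0.1), unscaled, with limma 3.58.1 in R 4.3.3 (4 group means over 8 libraries, eBayes with an intensity trend, 4 residual and 5.48 prior degrees of freedom, Benjamini-Hochberg adjustment). Fold changes understate those of low genes. No count test was run, because the deposited unit is RPKM. Only 53.5% to 68.7% of low values of single-exon genes came out as whole reads (within 0.05), so the depth is an estimate. On simulated CPI203 data with 200 of 14732 genes changed, 161 were called, as were 10 of the 14532 unchanged genes. In the measured data far more genes were called, 33.1% lower and 31.1% higher with CPI203. Between the DMSO pairs, 21.5% were lower and 20.3% higher in the CPI203 experiment. Whether the simulated counts hold for libraries that differ this widely was not tested.

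Named with values per library were the 2 largest subunits of each enzyme, POLR3G and POLR3GL, members past 1.5-fold, the highest and lowest of each class, the 3 largest differences between compounds, and the 2 largest changes each way among other pathway genes. CRCP, POLR3F, POLR2I, POLR2H, the POLR2J2 row ENSG00000267645 and GTF2H2 were given per library after their values were seen. The fits were repeated with a pseudocount of 1, with a minimum mean of 5 RPKM or none, with median or quantile scaling, against all 4 DMSO libraries, with a replicate block, separately per experiment, without the intensity trend, at 1.5-fold and without each library. Tables and figures were made in Python 3.11.15 (pandas 2.3.3, matplotlib 3.10.9). PTRF, below the minimum, was not tested. Values of 1 member and of some marker genes are not reported here, and the member stays in the counts, medians and sums.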

Additional observations from a re-analysis of the deposited data

How the results depend on the processing

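Over the 36 members and the alternatives, 611 of 648 values with CPI203 stayed on the same side of the threshold, 34 lost the call and 3 gained it. With SGC-CBP30 these counts were 556, 77 and 14 of 648, and for the difference between compounds 555, 18 and 3 of 576. Some alternatives for a compound left out a library of the other experiment. These could change the estimate of the spread but not the log2 fold change of that compound, so they test its calls less. A value that passed in neither fit could change sign and still be counted as kept. An example is POLR2B with CPI203, with log2 fold changes from -0.045 to 0.055. POLR2I with SGC-CBP30 changed sign against all 4 DMSO libraries (log2 fold change 0.072). The summed RPKM of the Pol II genes with CPI203 changed by 10.7%, and by -2.93% without POLR2A, an alternative chosen after seeing the data. The cause of the shifts under other settings was not tested.

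Members lower with CPI203 numbered 22, and 11 at 1.5-fold. Members higher numbered 6, with 2 against all 4 DMSO libraries and 1 at 1.5-fold. Leaving out each library gave 19 to 22 lower and 5 to 6 higher. With SGC-CBP30, 10 members were higher, with 5 without a filter, 4 with median scaling, 2 against all 4 DMSO libraries, 6 without the intensity trend, 1 at 1.5-fold and 4 to 11 when each library was left out. The 5 lower members became 3 without a filter, 0 against all 4 DMSO libraries and at 1.5-fold, and 1 to 5 when each library was left out. For the difference between compounds 22 positive members became 13 at 1.5-fold and 3 negative ones became 1. Between the DMSO pairs, the 18 lower members became 9 to 18 and the 3 higher ones 1 to 3 when each library was left out, and 1 and 0 at 1.5-fold. Among the other transcription genes, the 22 higher with SGC-CBP30 became 13 without a filter and with median scaling, 6 against all 4 DMSO libraries, 0 at 1.5-fold and 12 to 23 with each library left out. The 1 lower became 7 with median scaling, 2 with quantile normalization and with separate fits, and 0 without a filter, against all 4 DMSO libraries, without the intensity trend and at 1.5-fold, and 0 to 1 with each library left out. With CPI203, 21 higher and 22 lower became 3 and 3 at 1.5-fold.

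The study states that treated replicates were set against paired DMSO controls, while the main fit here left pairing out. Same-numbered libraries did not deviate together (correlations of -0.17 and -0.04 over 8298 genes), so the replicate numbers are not shown to pair. With the replicate number as a block, 21 members were lower and 5 higher with CPI203, 8 higher and 4 lower with SGC-CBP30, and 8 lower between the DMSO pairs. With the numbers crossed in the SGC-CBP30 experiment, chosen after seeing the data, 10 members were higher and 4 lower with SGC-CBP30, 10 lower between the DMSO pairs, and 2 of the other genes lower with SGC-CBP30. Depth is known only as an estimate, and 2 libraries per group limit every statement to differences well above the spread between them.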
